A study of Homo sapiens with 4 samples.

Results

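The genes described here encode the non-muscle actins (ACTB, ACTG1), the tropomyosins (TPM1, TPM2, TPM3, TPM4), a heavy and a light chain of myosin II (MYH9, MYL9), and the actin-binding proteins cofilin 1 (CFL1) and profilin 1 (PFN1). They were taken by gene symbol, each symbol matched 1 row, and they make up 10 of the 25133 rows with a symbol in the deposited expression values. RNA was sequenced from MDA-MB-231, a human cell line from a breast cancer with a mesenchymal appearance, after infection with lentivirus in the presence of Polybrene, an agent that aids viral entry. In the shJARID2 group the hairpin targeted JARID2, and the labels give the genotype as JARID2 knockdown. In the shSCR group it was a scrambled hairpin, and the genotype is given as WT. Each group had 2 libraries, all from the same cell line and all infected.

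Actin monomers polymerise into filaments, and in non-muscle cells the beta and gamma forms encoded by ACTB and ACTG1 supply most of the actin. Profilin binds monomers and feeds them to growing filament ends, cofilin severs and disassembles old filaments, and tropomyosins lie along filaments and set which partners can bind. Myosin II, a motor built from heavy chains, regulatory light chains and essential light chains, pulls on these filaments and gives stress fibres and the cell cortex their tension, which breast cancer cells use in migration.

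Values are FPKM (fragments per kilobase of gene and per 1000000 counted fragments). A change is the mean log2(FPKM + 1) of shJARID2 minus that of shSCR, called its log2 fold change, and it is smaller than the change of FPKM itself where a gene is low. Changes were tested with limma, a linear model fitted here across the 12455 named rows with a mean of at least 1 FPKM, and called at a Benjamini-Hochberg adjusted p below 0.05. Nothing in the labels says whether replicates were cultured apart, so p-values reflect the spread among the 4 libraries, which may be technical. In bulk RNA, fewer cells of a type and less RNA per cell cannot be told apart.

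JARID2, the target of the hairpin, had 3.88 and 3.91 FPKM in the shJARID2 libraries, against 10.8 and 10.8 FPKM in the shSCR libraries. It fell by 1.27 on the log2 scale (adjusted p = 0.0014, limma). Depth read from the steps of the values was about 12800000 to 13000000 counted reads in shJARID2 and 15500000 to 16200000 in shSCR. Of 5 genes high in this cell line, 4 (CD44, ANXA1, AXL, MSN) had between 33.6 and 417 FPKM, whereas VIM, the mesenchymal filament vimentin, was listed at only 2.10 to 4.20 FPKM. How reads that match several places were counted is not known here, and a low listed value need not mean low expression. The epithelial and hormone receptor genes ESR1, PGR, CDH1, ERBB3 and GATA3 summed to 0.832 to 1.10 FPKM. Muscle genes were not all absent. The muscle filament gene DES was at 0 in all 4 libraries, whereas MYH3 had 1.20 to 1.79 FPKM and SMTN 9.91 to 17.5 FPKM. The smooth muscle genes MYH11, SMTN, DES, LMOD1 and SYNPO2 summed to 10.2 to 18.1 FPKM, most of it from SMTN. Across 12039 genes, which are not independent replicates, log2 fold change and transcript GC content were inversely ranked (Spearman correlation -0.67). The median log2 fold change was 0.46 in the 10% of genes with the lowest GC content and -0.80 in the 10% with the highest. Values called GC-corrected are those after a trend on GC content was removed from each library. The trend was fitted to the library's differences from each gene's mean, so a real change that follows GC content is removed too.

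Most of these cytoskeletal genes were lower after JARID2 knockdown, with TPM1 as the exception and ACTB close to level. Of the 10 genes, 9 had a mean of at least 1 FPKM and were tested, and CFL1 was not. Among all tested genes 28% were called higher and 31.6% lower in shJARID2, 59.7% in all. Of the 9 tested here, 7 were called lower (ACTG1, TPM2, TPM3, TPM4, MYH9, MYL9, PFN1), 1 was called higher (TPM1) and 1 was not called (ACTB). TPM2 and MYL9 had under 1 FPKM in both shJARID2 libraries and reached the tested mean through shSCR, so the count is a description only. With either shSCR library left out, fewer genes were called in both directions, among these genes and among all tested genes alike. The median log2 fold change was -0.71 over the 9, which is the value of TPM2 itself and likewise a description only, and -0.02 over all tested genes. After GC correction 5 were called lower (ACTG1, TPM3, TPM4, MYH9, PFN1) and 2 higher (ACTB, TPM1), against 22.7% of all genes higher and 21.4% lower, and the median over the 9 was -0.35.

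**Figure D1:**
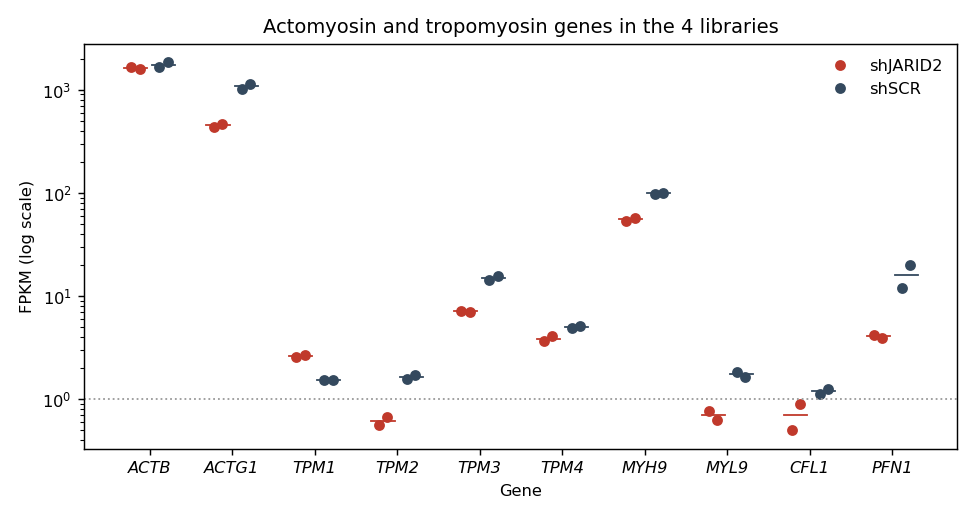
FPKM of each gene on a log axis, with 1 point per library, a bar at the group mean, shJARID2 in red left of shSCR in dark blue, and a dotted line at 1 FPKM. The groups overlap for ACTB alone, TPM1 is the gene whose shJARID2 libraries are both higher, and the other 8 genes have both shJARID2 libraries below both shSCR libraries.

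Counting all 10 genes, the libraries of the groups did not overlap for 9, with shJARID2 lower for 8 and higher for 1. Over all tested genes this separation was seen downward in 43.1% and upward in 39.8%. Levels spanned more than 3 orders of magnitude, with ACTB and ACTG1 far above the rest, MYH9 next, and TPM2, MYL9 and CFL1 near 1 FPKM. Positions are those of GENCODE release 29 on GRCh38.

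ACTB (chr7:5527147-5563784, - strand), which encodes beta-actin and is often used as a loading control, had 1671 and 1579 FPKM in shJARID2, against 1650.5 and 1835 FPKM in shSCR. It ranked 2 among all named rows in both shJARID2 libraries and 1 in both shSCR libraries. The groups overlapped. The difference was -0.10 on the log2 scale (SE 0.078, 95% interval -0.31 to 0.11, adjusted p = 0.32, limma). Its annotated transcripts had a median GC content of 62.1% and its principal transcript 56.0%. With the first of these in the GC correction ACTB was called higher, at 0.60 (adjusted p = 0.0072, limma), and with the second at 0.31 (adjusted p = 0.041, limma), so its direction turned with the correction.

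ACTG1 (chr17:81509971-81523847, - strand), which encodes gamma-actin, fell to 438 and 464 FPKM in shJARID2, against 1016 and 1144 FPKM in shSCR. The groups lay far apart, with a ratio of means of 0.417. ACTG1 fell by 1.26 on the log2 scale (SE 0.078, adjusted p = 0.0014, limma), with a value of -0.77 after GC correction (adjusted p = 0.0024, limma). ACTG1 ranked 11 and 9 among named rows in shJARID2, against 5 and 3 in shSCR. The ratio of ACTG1 to ACTB was 0.262 and 0.294 in shJARID2, against 0.616 and 0.624 in shSCR, a log2 difference of -1.16 with no overlap. An exact permutation test gave p = 0.333 (two-sided), the smallest that 2 against 2 libraries allow. ACTB and ACTG1 together made up 1.15% and 1.12% of the FPKM of named rows in shJARID2, against 1.44% and 1.60% in shSCR.

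Both actin genes share most of their coding sequence, which bears on whether reads can be told apart. The coding sequences of their principal transcripts in GENCODE release 29 are 1125 bases each and differ at 98 bases (91.3% identical), and the longest identical stretch is 59 bases. Their first 60 coding bases are shown, with the 10 bases that differ in capitals.
ACTB: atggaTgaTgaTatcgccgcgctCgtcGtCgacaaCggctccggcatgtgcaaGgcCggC
ACTG1: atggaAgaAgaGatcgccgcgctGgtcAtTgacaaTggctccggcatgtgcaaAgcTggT
By symbol, the annotation holds 10 pseudogene copies of ACTB and 20 of ACTG1, so the values of both genes are uncertain. The 6 ACTB copies with a row in the files carried 0.120% and 0.121% as many reads as ACTB in shJARID2, and 0.193% and 0.173% in shSCR. The 8 ACTG1 copies carried 0.563% and 0.363% as many as ACTG1 in shJARID2, and 0.282% and 0.278% in shSCR. One copy, ACTBP11, had 0.686 and 0.902 FPKM in shJARID2, against 4.81 and 4.61 FPKM in shSCR. Another, ACTBP7, lay the other way, with 4.47 and 4.03 FPKM in shJARID2, against 3.33 and 3.63 FPKM in shSCR. ACTBP7 was not called (log2 fold change 0.23, adjusted p = 0.088, limma). Both rows were chosen after their values were seen.

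Serum response factor (SRF), a transcription factor that binds the CArG box, is known as a driver of many actin cytoskeleton genes. The 250 bases before each start in the RefSeq table of promoters (GRCh38.p14) were searched on both strands. The table held 12 windows for 8 of the genes, and ACTB and MYL9 had none. TPM2, TPM3 and TPM4 had more than 1 window each, and those of TPM2 overlap, so the 12 windows are not independent. A CArG box was found in 2 of the 12 windows, 1 of ACTG1 and 1 of TPM4, and in 1.16% of 35116 windows of the same length. The TPM4 windows further downstream (chr19:16076245-16076494 and chr19:16076766-16077015) had none. CCAAT was in 3 of the 12 windows and in 32% of all, TATAAA in 0 and in 10.7% of all, and GGGCGG in 12 of the 12 and in 42.6% of all. A match is a description of letters, not of binding. Both windows with a CArG box are shown, the box in capitals. That of ACTG1 (chr17:81512800-81513049, - strand) has it 84 bases before the start, and that of TPM4 (chr19:16067288-16067537, + strand) has it 163 bases before.
ACTG1: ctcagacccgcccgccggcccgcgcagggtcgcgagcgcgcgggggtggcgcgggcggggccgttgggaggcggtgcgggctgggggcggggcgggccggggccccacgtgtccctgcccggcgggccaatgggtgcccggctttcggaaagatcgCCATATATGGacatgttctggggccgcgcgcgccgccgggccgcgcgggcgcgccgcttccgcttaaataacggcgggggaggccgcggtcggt
TPM4: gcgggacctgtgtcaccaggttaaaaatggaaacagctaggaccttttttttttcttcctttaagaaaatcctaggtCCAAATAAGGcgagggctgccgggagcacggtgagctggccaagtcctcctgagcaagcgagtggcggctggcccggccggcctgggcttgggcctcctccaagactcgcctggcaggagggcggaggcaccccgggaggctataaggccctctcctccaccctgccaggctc

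Of the tropomyosins, TPM2, TPM3 and TPM4 fell and TPM1 rose. TPM3 (chr1:154155304-154194648, - strand), the source of many of the short non-muscle isoforms, fell to 7.14 and 7.05 FPKM in shJARID2, against 14.4 and 15.7 FPKM in shSCR. This was a change of -0.99 on the log2 scale (SE 0.064, adjusted p = 0.0014, limma), and the ratio of the group means was 0.470 with no overlap. The median GC content of its transcripts, 47.6%, lay among 10% of genes whose median log2 fold change was 0.10, and the GC-corrected value was -1.07 (adjusted p = 0.0018, limma). The annotation holds 8 pseudogene copies of TPM3, and the 5 with a row carried 22.0% and 22.5% as many reads as TPM3 in shJARID2, against 12.3% and 11.3% in shSCR. Most of these reads were of TPM3P9, with 129 and 129 reads in shJARID2, against 166 and 186 in shSCR. It was not called (log2 fold change -0.115, adjusted p = 0.27, limma). TPM3P1 had 4.34 and 3.97 FPKM in shJARID2, against 5.36 and 4.55 FPKM in shSCR, and was not called (log2 fold change -0.20, adjusted p = 0.15, limma). Whether reads moved between TPM3 and its copies was not tested.

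TPM1 (chr15:63042632-63071915, + strand), whose long isoforms are associated with stress fibres, had 2.55 and 2.68 FPKM in shJARID2, against 1.52 and 1.54 FPKM in shSCR. It rose by 0.51 on the log2 scale (SE 0.098, adjusted p = 0.012, limma), and by 0.58 after GC correction (adjusted p = 0.01, limma). Both shJARID2 libraries lay above both shSCR libraries. The call was lost without shSCR replicate 1 (adjusted p = 0.063, limma) and without shSCR replicate 2 (adjusted p = 0.065, limma), with fold changes of 0.51 and 0.52. Exons of other genes, among them the antisense TPM1-AS, cover 21.4% of the exon bases of TPM1. Whether counting used strand is not known here, so reads of TPM1 and of TPM1-AS cannot be told apart there.

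TPM2 (chr9:35681992-35690121, - strand), known from muscle and also made in fibroblasts, had 0.571 and 0.673 FPKM in shJARID2, against 1.59 and 1.73 FPKM in shSCR. These values correspond to 24 and 28 reads in shJARID2, against 80 and 91 in shSCR. The ratio of means was 0.375, and TPM2 fell by 0.71 on the log2 scale (SE 0.129, adjusted p = 0.01, limma) with no overlap. It reached the tested mean through shSCR, and was called in the fit with no filter too (adjusted p = 0.024, limma). After GC correction the value was -0.17 and no longer called (adjusted p = 0.3, limma), and the call was also lost without shSCR replicate 2 (-0.68, adjusted p = 0.062, limma).

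TPM4 (chr19:16067021-16103005, + strand) has a principal transcript of 852 coding bases, as TPM1 and TPM2 have. It had 3.67 and 4.10 FPKM in shJARID2, against 4.86 and 5.15 FPKM in shSCR. It fell by 0.30 on the log2 scale (SE 0.085, adjusted p = 0.038, limma), the smallest change among the genes called here, and by 0.35 after GC correction (adjusted p = 0.026, limma). The groups did not overlap, but the call was lost without shSCR replicate 1 (adjusted p = 0.11, limma), without shSCR replicate 2 (adjusted p = 0.18, limma) and without shJARID2 replicate 1 (adjusted p = 0.12, limma). It was also lost with no filter on low values (adjusted p = 0.078, limma) and with named rows rescaled to a common sum (adjusted p = 0.057, limma).

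As listed, the make-up of the tropomyosin pool differed between the groups in every library. The summed FPKM of the 4 genes was 13.9 and 14.5 in shJARID2, against 22.4 and 24.2 in shSCR. TPM3 held 51.3% and 48.6% of the sum in shJARID2, against 64.4% and 65.1% in shSCR. TPM1 held 18.3% and 18.5% in shJARID2, against 6.80% and 6.40% in shSCR. In FPKM, TPM3 was the largest share in every library, and TPM1 was the third largest in both shJARID2 libraries and the smallest share in both shSCR libraries. TPM4 held 26.3% and 28.3% in shJARID2, against 21.7% and 21.3% in shSCR, and TPM2 held 4.09% and 4.64% in shJARID2, against 7.09% and 7.17% in shSCR. Groups did not overlap for any of the 4 shares, each with an exact permutation p = 0.333, the smallest possible. All shares rest on TPM1, uncertain by exon overlap, and on TPM3, uncertain by pseudogene copies. Shares of a sum also depend on each other, and that of TPM4 was higher in shJARID2 although its FPKM was lower.

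**Figure D2:**
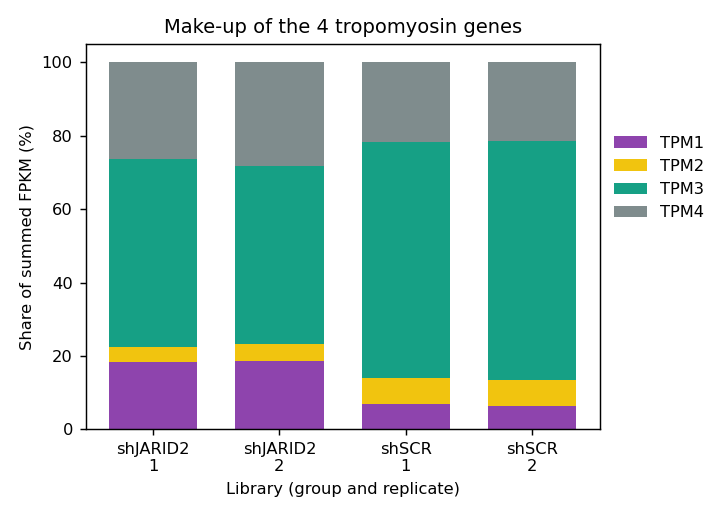
Stacked bars of the percentage of the summed FPKM of TPM1, TPM2, TPM3 and TPM4 in each library, with the shJARID2 libraries left of the shSCR libraries. The TPM1 segment is near 18% in both shJARID2 libraries and under 7% in both shSCR libraries, and the TPM3 segment is wider in shSCR.

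Shares between genes depend on the length used per gene. FPKM matched the merged exon length of every annotated transcript, 12876 bases for TPM1, 3248 for TPM2, 8389 for TPM3 and 8632 for TPM4, against 1049, 1392, 1523 and 2539 bases in their principal transcripts. In reads not divided by length TPM1 held 26.0% and 26.3% of the sum in shJARID2, against 10.4% and 9.85% in shSCR, and TPM2 was the smallest share in every library. TPM4 held 25.1% and 27.0% of these reads in shJARID2, so TPM1 was above it in replicate 1 and below it in replicate 2. Coding sequences of equal length were 79.0% identical between TPM1 and TPM2, 75.1% between TPM1 and TPM4 and 77.0% between TPM2 and TPM4. TPM1, TPM2 and TPM4 were thus less alike than the actins. TPM3, with 855 coding bases against 852, was not compared.

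Both myosin II chains were lower in shJARID2. MYH9 (chr22:36281277-36388067, - strand), the heavy chain of non-muscle myosin IIA, fell to 52.8 and 57.7 FPKM in shJARID2, against 97.6 and 99.7 FPKM in shSCR. On the log2 scale it fell by 0.83 (SE 0.057, adjusted p = 0.0014, limma). With between 6162 and 14544 reads per library, MYH9 was measured with little spread and the groups lay far apart. MYH9 ranked 528 and 450 among named rows in shJARID2, against 176 and 173 in shSCR. After GC correction the value was -0.37 (adjusted p = 0.0034, limma), and -0.28 with the GC content of the principal transcript (adjusted p = 0.0055, limma).

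MYL9 (chr20:36541484-36551447, + strand), a regulatory light chain whose phosphorylation switches the motor on, had 0.766 and 0.637 FPKM in shJARID2, against 1.85 and 1.64 FPKM in shSCR. These values came from 28 and 23 reads in shJARID2, against 81 and 75 in shSCR. It fell by 0.69 on the log2 scale (SE 0.130, adjusted p = 0.012, limma). It too reached the tested mean through shSCR, and was called in the fit with no filter (adjusted p = 0.029, limma). After GC correction the value was -0.05 (adjusted p = 0.81, limma), and the measured call was also lost without shSCR replicate 1 (-0.64, adjusted p = 0.067, limma) and without shSCR replicate 2 (-0.75, adjusted p = 0.051, limma). The ratio of MYL9 to MYH9 was 0.0145 and 0.0110 in shJARID2, against 0.0190 and 0.0165 in shSCR (exact permutation p = 0.333, the smallest possible).

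Other regulatory light chains were listed far above MYL9. Its paralog MYL12B had 272 and 268 FPKM in shJARID2, against 226 and 237 FPKM in shSCR, and MYL12A had 80.3 and 76.8 FPKM in shJARID2, against 59.9 and 61.8 FPKM in shSCR. Both rose, by 0.22 (MYL12B, adjusted p = 0.015, limma) and 0.36 (MYL12A, adjusted p = 0.0039, limma) on the log2 scale. After GC correction neither was called, at 0.01 for MYL12B (adjusted p = 0.92, limma) and 0.08 for MYL12A (adjusted p = 0.19, limma). Of 4 tested genes in the list of other myosin II chains, 2 were higher and 1 lower, and 0 and 1 after GC correction. MYL6B, an essential light chain gene, had 0.924 and 0.767 FPKM in shJARID2, against 2.34 and 3.01 FPKM in shSCR (log2 fold change -0.99, adjusted p = 0.0058, limma). It passed the filter through shSCR and was at -0.545 after GC correction (adjusted p = 0.036, limma). MYL6 was not called, at -0.16 (adjusted p = 0.088, limma). Exon overlap makes both uncertain. MYH10, the heavy chain of myosin IIB, had between 0.154 and 0.243 FPKM in the 4 libraries, and MYH14, that of myosin IIC, at most 0.0446 FPKM, so MYH9 had by far the highest level per length of the 3 heavy chains.

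PFN1 had the largest change among the 9 tested genes. The gene (chr17:4945652-4949061, - strand) had 4.16 and 3.97 FPKM in shJARID2, against 11.9 and 19.8 FPKM in shSCR. The shJARID2 libraries lay close together, whereas the shSCR libraries differed from each other more, relative to their mean, than those of any other of the 10 genes, and the groups did not overlap. PFN1 fell by 1.69 on the log2 scale (SE 0.242, adjusted p = 0.0054, limma), by 1.35 without shSCR replicate 2 and by 2.04 without shSCR replicate 1. After GC correction the value was -1.17 (adjusted p = 0.017, limma). The 5 pseudogene copies of PFN1 with a row carried 79.4% and 62.4% as many reads as PFN1 in shJARID2, against 46.5% and 31.8% in shSCR, so PFN1 is uncertain. Of these, PFN1P3 fell to 7.11 and 4.47 FPKM in shJARID2, against 13.8 and 12.1 FPKM in shSCR (log2 fold change -1.07, adjusted p = 0.013, limma), and PFN1P6 had 3 and 1 reads in shJARID2, against 21 and 28 in shSCR. Whether reads moved between PFN1 and its copies was not tested.

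CFL1 (chr11:65823022-65862026, - strand) was listed at 0.500 and 0.906 FPKM in shJARID2, against 1.13 and 1.26 FPKM in shSCR, with a mean of 0.951 FPKM, just under the tested minimum. These values correspond to 38 and 68 reads in shJARID2, against 103 and 120 in shSCR. Both shJARID2 libraries were lower, but they differed from each other by more than the gap to shSCR. In a fit with no filter the difference was -0.38 on the log2 scale (SE 0.165, adjusted p = 0.21, limma), not past the threshold. CFL1 has 8 annotated pseudogene copies, and exons of MUS81 and SNX32 on the other strand cover 19.0% of its exon bases. MUS81, a DNA repair nuclease gene, had 6.70 and 7.74 FPKM in shJARID2, against 10.4 and 11.6 FPKM in shSCR. The copies with a row, 3 in number, carried 48.1% and 47.1% as many reads as CFL1 in shJARID2, against 25.8% and 18.0% in shSCR, and how reads with several matches were handled is not known, so the listed level of CFL1 is uncertain.

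**Figure D3:**
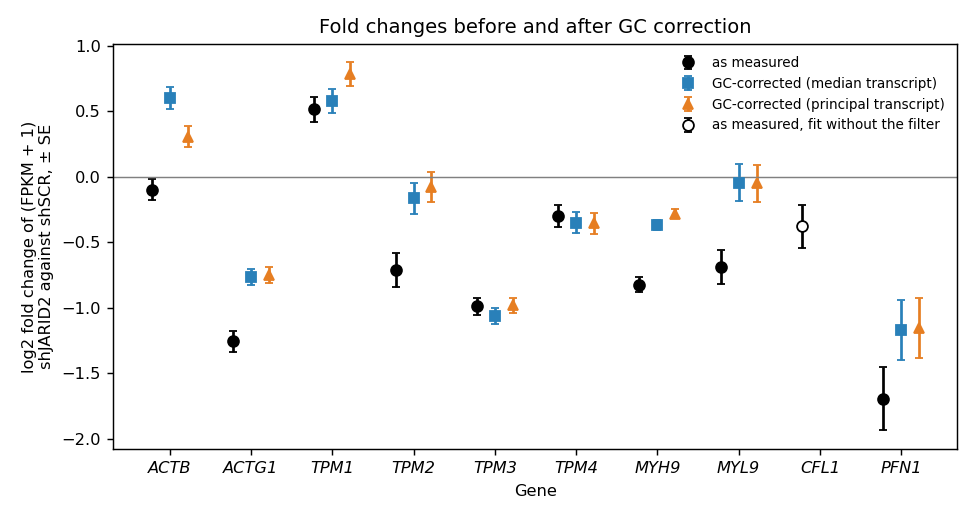
Log2 fold changes of (FPKM + 1) in shJARID2 against shSCR for each gene, with SE bars, as measured (black circles), after GC correction on the median transcript (blue squares) and on the principal transcript (orange triangles), and, for CFL1, from the fit with no filter (open circle). ACTB is at -0.10 as measured and at 0.60 and 0.31 after the corrections, the corrected values of TPM2 and MYL9 lie close to 0, and those of TPM1, TPM3 and TPM4 lie near or beyond the measured ones.

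PFN2 and CFL2, paralogs of PFN1 and CFL1, rose, whereas DSTN, also of the cofilin family, did not. PFN2, the second profilin, had 100.4 and 91.5 FPKM in shJARID2, against 47.3 and 45.6 FPKM in shSCR, a rise of 1.03 on the log2 scale (adjusted p = 0.0014, limma) and of 0.93 after GC correction. CFL2, the cofilin known best from muscle, had 9.61 and 9.36 FPKM in shJARID2, against 3.77 and 3.32 FPKM in shSCR, a rise of 1.21 (adjusted p = 0.0014, limma) and of 0.77 after GC correction. Neither PFN2 nor CFL2 overlapped between groups. DSTN had 8.46 and 9.47 FPKM in shJARID2, against 10.3 and 9.91 FPKM in shSCR, and was not called (log2 fold change -0.16, adjusted p = 0.13, limma). After GC correction DSTN was called lower, at -0.45 (adjusted p = 0.012, limma). The ratio of PFN2 to PFN1 was 24.1 and 23.0 in shJARID2, against 3.98 and 2.30 in shSCR, and that of CFL2 to CFL1 was 19.2 and 10.3 in shJARID2, against 3.33 and 2.63 in shSCR. Each ratio had an exact permutation p = 0.333, the smallest possible, both were computed after the rise of PFN2 and CFL2 was seen, and both rest on PFN1 and CFL1 levels that are uncertain.

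Lists of 98 other actin genes with a row, in 7 groups by role, gave 85 tested genes, of which 24 were called higher and 31 lower. Over all tested genes, the measured shares were 28% higher and 31.6% lower. After GC correction 20 of the genes with a GC value were higher and 34 lower, against 22.7% higher and 21.4% lower over all genes. Their median log2 fold change was -0.10 as measured and -0.10 after GC correction. GSN, SSH3 and MYL6B, all called lower, had under 1 FPKM in both shJARID2 libraries. They reached the tested mean through shSCR, so the counts in these lists are a description only.

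Among 18 tested genes of monomer binding and severing, 4 were higher and 7 lower, and 7 were higher and 7 lower after GC correction. CORO1B and CORO1C, which encode coronins, fell by 1.41 and 1.18 on the log2 scale (adjusted p = 0.0016 and 0.0014, limma), and CAP1, which recycles actin monomers, fell by 1.19 (adjusted p = 0.0014, limma). GC-corrected values were -0.62 for CORO1B, -1.21 for CORO1C and -1.13 for CAP1, and 0.98 for CAP2 and 0.59 for TMSB4X. CAP1 averaged 14.8 ± 1.43 FPKM in shJARID2 and 34.9 ± 0.494 FPKM in shSCR (SD, n = 2 each). Its paralog CAP2 was higher, at 42.1 and 40.6 FPKM in shJARID2, against 20.3 and 20.4 FPKM in shSCR (log2 fold change 0.99, adjusted p = 0.0014, limma). TMSB4X, whose product thymosin beta-4 sequesters monomers, had 1841 and 1739 FPKM in shJARID2, against 1129 and 1102 FPKM in shSCR, and rose by 0.68 (adjusted p = 0.0018, limma). CAP2 and TMSB4X were chosen after their values were seen. Exons of other genes cover 31.2% of the exon bases of CAP1 and 24.3% of those of CORO1B, and TMSB4X has 6 annotated pseudogene copies, so the values of these 3 genes are uncertain.

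Among genes for capping, crosslinking and bundling of filaments, 10 of 20 tested were lower and 6 higher, and 13 were lower and 3 higher after GC correction. ACTN4, an actin crosslinker of the alpha-actinin family, averaged 65.1 ± 5.99 FPKM in shJARID2 and 157.6 ± 7.34 FPKM in shSCR (SD, n = 2 each). It fell by 1.27 on the log2 scale (adjusted p = 0.0014, limma). FSCN1, which encodes the bundling protein fascin, fell by 1.20 (adjusted p = 0.0014, limma), and the filamins FLNA and FLNC fell by 1.14 and 1.07 (adjusted p = 0.0014 and 0.0016, limma). ACTN4, FSCN1, FLNA and FLNC were also called after GC correction, with smaller values, between -0.74 for ACTN4 and -0.36 for FLNC. Exons of other genes cover 14.2% of the exon bases of ACTN4, whose value is uncertain. The median over this list was -0.46, and -0.28 after GC correction.

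Of 14 myosin II regulators, 3 were higher, 3 lower and 8 not called, and 5 were higher and 5 lower after GC correction. RHOC, which encodes a small GTPase, fell to 15.0 and 15.3 FPKM in shJARID2, against 48.0 and 44.9 FPKM in shSCR (log2 fold change -1.55, adjusted p = 0.0014, limma), and its GC-corrected value was -0.95. Exons of other genes cover 10.8% of the exon bases of RHOC, whose value is uncertain. MPRIP, which brings myosin phosphatase to filaments, and the kinase CDC42BPB fell by 0.88 and 0.87 (adjusted p = 0.0017 and 0.0026, limma), whereas PPP1CB, the catalytic subunit of myosin phosphatase, rose by 0.75 (adjusted p = 0.0019, limma). GC-corrected values were -0.51 for MPRIP, -0.51 for CDC42BPB and 0.45 for PPP1CB, each still called. Exons of other genes cover 12.6% of the exon bases of CDC42BPB, whose value is uncertain. ROCK1 rose by 0.34 as measured (adjusted p = 0.0055, limma), with -0.12 after GC correction (adjusted p = 0.11, limma). ROCK2 had a measured value of 0.00 (adjusted p = 0.97, limma) and was called lower after GC correction, at -0.40 (adjusted p = 0.0031, limma). RHOA was at 0.21 (adjusted p = 0.13, limma) and was called higher after it, at 0.45 (adjusted p = 0.014, limma). These last 3 were chosen after their values were seen.

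Of 20 tested genes for filament nucleation and elongation, 8 were higher and 6 lower, and 3 were higher and 6 lower after GC correction. VASP and FMNL1, which promote elongation, fell by 1.09 and 1.19 (adjusted p = 0.0015 and 0.0029, limma), and WASL, an activator of the Arp2/3 complex, and ENAH, a relative of VASP, rose by 0.82 and 0.56 (adjusted p = 0.0029 and 0.0028, limma). After GC correction the values were smaller and still called, at -0.62 for VASP, -0.62 for FMNL1, 0.48 for WASL and 0.46 for ENAH. VASP and ENAH, of the same family, differed in direction. Exons of other genes cover 24.3% of the exon bases of FMNL1, whose value is uncertain.

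Of 8 tested genes in the list of SRF, its cofactors and their known targets, 1 was higher and 4 lower, and 2 were higher and 2 lower after GC correction, which 2 of the 8 could not enter for want of a GC value. SRF itself had 21.7 and 23.1 FPKM in shJARID2, against 39.4 and 40.9 FPKM in shSCR, and fell by 0.82 (adjusted p = 0.0014, limma). After GC correction the value was -0.17 (adjusted p = 0.019, limma). FHL2, a target and partner of SRF, fell by 0.66 (adjusted p = 0.0026, limma) and FHL1 rose by 0.30 (adjusted p = 0.01, limma), with GC-corrected values of -0.50 for FHL2 and 0.49 for FHL1. ZYX, which encodes the focal adhesion protein zyxin, fell by 0.51 as measured (adjusted p = 0.0031, limma) and was called higher after GC correction, at 0.25 (adjusted p = 0.015, limma). Of 3 muscle actins with a row, ACTA2 was tested, with -0.43 (adjusted p = 0.086, limma) and an overlap with neighbouring genes over 30.1% of its exon length, whereas ACTA1 and ACTG2 had at most 0.165 FPKM in any library.

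**Figure D4:**
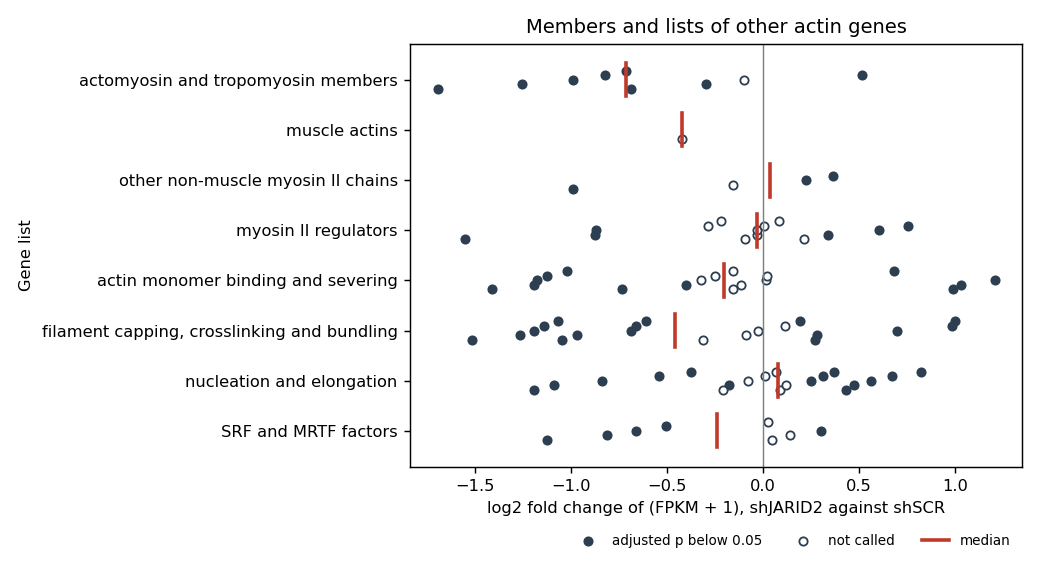
Log2 fold changes of (FPKM + 1), shJARID2 against shSCR, of the tested actomyosin and tropomyosin genes (top row) and of 7 lists of other actin genes, 1 point per gene, filled where called, with a red bar at the median. The median of the top row, -0.71, is the value of TPM2, that for capping, crosslinking and bundling is -0.46, and all other lists but that of the muscle actins, with no called gene, hold called genes on both sides of 0.

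Beside their fold changes, the genes called lower differed in GC content. ACTG1, MYH9, PFN1, TPM2 and MYL9 had transcript GC contents between 57.2% and 60.9%, among genes of like GC content whose median log2 fold changes were -0.40 or -0.57. ACTG1 (-1.26) and PFN1 (-1.69) lay far below those medians, MYH9 (-0.83) below, and TPM2 (-0.71) and MYL9 (-0.69) close to them. TPM2 and MYL9 are low, and the pseudocount of 1 makes their changes smaller. With a pseudocount of 0.1 the changes were -1.29 for TPM2 and -1.21 for MYL9. Medians by GC content and the GC correction were not computed at that pseudocount. TPM3 and TPM4 had GC contents of 47.6% and 47.9%, where the median was 0.10, and lay below it. TPM1, at 50.2%, lay above a median of -0.04, and ACTB, at 62.1%, lay above that of -0.80.

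**Figure D5:**
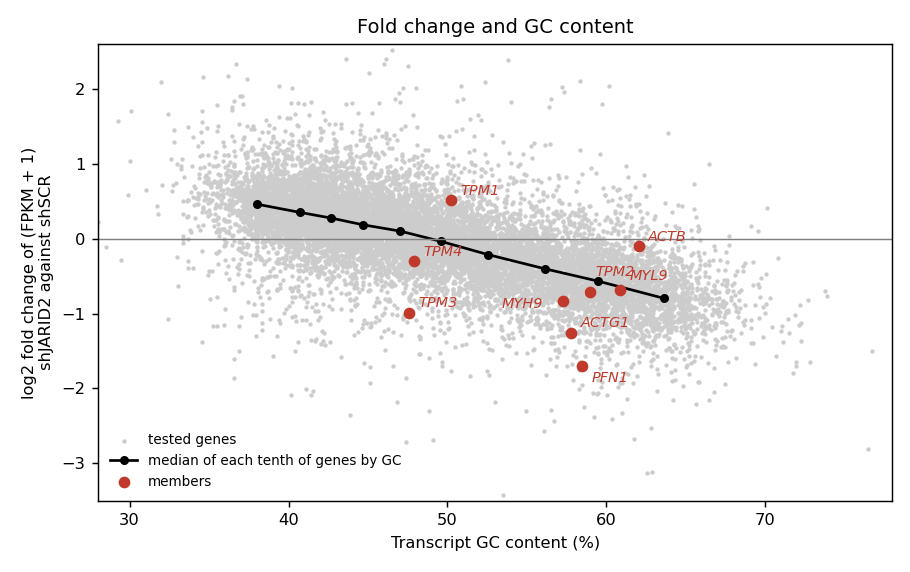
Log2 fold change of (FPKM + 1), shJARID2 against shSCR, on transcript GC content in percent for the tested genes (grey, with 9 points outside the axes), the medians of 10 equal groups of genes by GC content (black line) and the tested actomyosin and tropomyosin genes (red). The black line falls to -0.80 at the right. On this scale, which shrinks changes of low genes, TPM2 and MYL9 lie near it. PFN1, ACTG1 and TPM3 lie below it, and TPM1 and ACTB above it.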

How the data were processed

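Each library had 1 deposited table of 85553 rows, whose values the authors had already scaled to FPKM, per the file headers. The submitters' processing notes name Trimmomatic, HISAT2, SAMtools and featureCounts. Versions, genome build, annotation, and the treatment of strand and of multiple matches: not given in the sources used here. Rows without a symbol (60420, holding 21.1% to 24.5% of all FPKM) were left out. Multiplied by merged exon lengths of GENCODE release 29, which 24205 named rows matched, most values of up to 20 reads became whole numbers (96.0% to 96.4% per library, to within 0.05), and the scale at which they did so gave the depths. These reads carry counting error, largest for TPM2, MYL9 and CFL1, and their number limits the precision.

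Groups and replicate numbers came from the labels. Values of log2(FPKM + 1), with a pseudocount of 1, were tested with limma (version 3.58.1, R 4.3.3). Group was the only term, the prior variance had a trend, and rows needed a mean of at least 1 FPKM. Benjamini-Hochberg adjustment ran over 12455 rows with a threshold of 0.05. Residual degrees of freedom were 2, and the prior added 2.36. The GC correction subtracted from each library a loess curve (span 0.3, degree 2) on the median GC content of a gene's annotated transcripts, for 12039 genes. The curve was fitted to differences from each gene's mean over the libraries. The correction was run on simulated data with a linear GC trend and changes placed at random over genes. That simulation cannot show how the correction acts where real changes follow GC content. A second correction, chosen after seeing the data, used the principal transcript (APPRIS). Ratios and shares were tested by exact two-sided permutation over libraries.

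Members, lists and alternatives were chosen with earlier results of these data known. Named genes were JARID2, the 10 members, up to 4 called genes of each list with the largest change and a mean of at least 5 FPKM, and paralogs or pseudogenes of members. Genes with 6 or more pseudogene copies, or with 10% or more of their exon bases in other genes, are to be read as uncertain. By copies these were 5 of the 10 (ACTB, ACTG1, TPM3, CFL1, PFN1), and by exon overlap 2 (TPM1, CFL1). Alternatives were other pseudocounts, filters, scalings and priors, limma-voom on recovered reads, the replicate number as a block, the GC corrections and each library left out.

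The replicate numbers are shared by the groups, but nothing says that they pair libraries. The differences between replicates 2 and 1 correlated across genes at 0.029 between the groups.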

Additional observations from a re-analysis of the deposited data

How the results depend on the processing

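ACTG1, TPM3, MYH9, PFN1 and JARID2 kept their direction and call in all 16 alternatives run, with log2 fold changes of -1.34 to -0.75 (ACTG1), -1.08 to -0.93 (TPM3), -0.89 to -0.28 (MYH9), -2.04 to -1.16 (PFN1) and -1.45 to -1.15 (JARID2). With the GC correction, alone, with the replicate block or on the principal transcript, 2 of the 10 genes were higher in each, since ACTB turned to 0.60, 0.60 and 0.31, and 2582, 2326 and 2498 of all genes were lower. TPM2 and MYL9 lost their calls under each of these corrections. With the replicate block alone, 3380 genes were higher and 3831 lower, and no call among the 10 genes changed. The shared numbers are not known to pair libraries. Leaving out 1 library gave 0 to 1 of the 10 genes higher and 4 to 7 lower, and 2168 to 3068 of all genes higher and 2462 to 3763 lower, with 2168 and 2462 reached without shSCR replicate 2. The cause was not tested. In reads in place of FPKM, the shares of the tropomyosin sum differed between shJARID2 and shSCR by 16.03 (TPM1), -1.20 (TPM2), -18.7 (TPM3) and 3.84 (TPM4) percentage points, against 11.8, -2.76, -14.8 and 5.79 in FPKM, a difference that gene length makes. Other scalings, priors and pseudocounts ended no call except that of TPM4. With 2 libraries a group, low counts and unknown rules for multiple matches, CFL1, MYL9 and TPM2 are the least precise. By pseudogene copies or exon overlap, ACTB, ACTG1, TPM1, TPM3, CFL1 and PFN1 are uncertain, including those that kept their calls.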
